A study of Mus musculus with 3 samples.

Results

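The NF-kappaB subunits and their feedback inhibitors were described in single myeloid cells of the mouse hippocampus. The 10 genes were chosen by symbol among the 31053 genes listed, and each symbol matched 1 row: the subunits Nfkb1, Nfkb2, Rel and Relb, the inhibitory and nuclear IkappaB proteins Nfkbia, Nfkbiz, Nfkbid and Bcl3, the ubiquitin-editing enzyme Tnfaip3, and Gadd45b, a stress-induced target. The cells were tdTomato-positive and came from the hippocampi of both sides in mice of the genotype Cx3cr1CreERT2/+, Rosa26tdTomato/+ and NestinTK-eGFP/+. All animals received tamoxifen at 100 mg/kg on 4 days, which switches on the reporter where the Cx3cr1 locus drives the inducible Cre, that is in microglia and related macrophages. The labels describe 12 animals, 6 male and 6 female, without assigning them to the 3 sequencing runs, and they give no age. The runs form a single group with no untreated or other comparison group, so populations of cells were compared with each other inside each run.

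NF-kappaB is a family of dimeric transcription factors held in the cytoplasm by IkappaB proteins until a receptor for a microbial product or a cytokine triggers their degradation. In the canonical branch, Nfkb1 (p105, processed to p50) pairs with RelA or c-Rel (Rel). In the non-canonical branch, Nfkb2 (p100, processed to p52) pairs with Relb. NF-kappaB switches on genes for its own inhibitors, among them Nfkbia and Tnfaip3, as well as the chemokine genes Ccl3 and Ccl4 that activated microglia make.

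The promoters of the members are shown because NF-kappaB sites are what tie the inhibitors to the pathway that they inhibit. RefSeq start sites in the GRCm38.p6 build were at hand for 7 of the 10 members, in 12 windows, and the 250 bases before each start were searched on both strands for GGG, any 3 bases and TTCC, or GGG, any 2 bases and TTCCC, 2 spellings of the NF-kappaB site that share letters and can overlap. Either spelling was found in 8 of the 12 windows and in 5 of the 7 members (Nfkbia, Tnfaip3, Rel, Nfkb2 and Nfkbid), against 5.74% of all 32851 windows of that length. The windows of Gadd45b and Bcl3 held neither. All windows of Nfkb2 and Tnfaip3, and the Nfkbid window that holds the matches, lie mostly or wholly inside the gene as GENCODE M21 draws it, and are not printed. The 4 windows below are those of the inhibitor Nfkbia and of Gadd45b, which both rose with Ccl3 and Ccl4, of the subunit Rel, and of Bcl3, which rose in border macrophage-gated cells. They run from 5′ to 3′ on the gene's strand and end at the base before the start, and capitals mark a match on either strand.
Nfkbia, chr12:55492648-55492897, minus strand: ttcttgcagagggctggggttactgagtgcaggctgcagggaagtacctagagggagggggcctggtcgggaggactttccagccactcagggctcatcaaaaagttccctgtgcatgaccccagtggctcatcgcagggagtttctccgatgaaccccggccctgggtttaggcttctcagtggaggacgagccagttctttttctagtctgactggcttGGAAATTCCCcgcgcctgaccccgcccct
Gadd45b, chr10:80929841-80930090, plus strand: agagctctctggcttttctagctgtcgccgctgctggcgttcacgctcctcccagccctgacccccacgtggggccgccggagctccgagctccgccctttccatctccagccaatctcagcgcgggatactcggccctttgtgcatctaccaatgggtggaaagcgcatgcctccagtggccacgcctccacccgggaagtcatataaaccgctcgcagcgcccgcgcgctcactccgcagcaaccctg
Rel, chr11:23770970-23771219, minus strand: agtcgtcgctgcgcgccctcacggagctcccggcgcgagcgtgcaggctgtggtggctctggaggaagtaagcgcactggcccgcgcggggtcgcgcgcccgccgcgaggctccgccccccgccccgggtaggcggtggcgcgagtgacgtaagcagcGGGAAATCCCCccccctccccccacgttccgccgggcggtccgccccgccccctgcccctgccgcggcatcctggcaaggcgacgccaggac
Bcl3, chr7:19822756-19823005, minus strand: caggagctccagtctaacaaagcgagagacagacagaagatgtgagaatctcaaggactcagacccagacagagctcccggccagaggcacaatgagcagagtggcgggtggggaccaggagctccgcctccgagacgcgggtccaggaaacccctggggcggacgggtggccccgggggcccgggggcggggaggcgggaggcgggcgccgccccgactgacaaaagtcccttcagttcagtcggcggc
The match before Nfkbia spans bases 29 to 20 before the start and reads GGGAATTTCC on the opposite strand. The capitals before Rel are 2 overlapping matches, GGGATTTCCC and GGGGATTTCC, both on the opposite strand. A match in letters is a description of the sequence, and the absence of a match says only that these letters are not in the window.

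The runs held 7255, 6895 and 6226 barcodes, and 19791 cells were kept (6993, 6720 and 6078 in runs 1, 2 and 3), those with 1000 or more UMIs (unique molecular identifiers, each a captured RNA molecule), 500 or more genes and no more than 10% of UMIs from mitochondrial genes. The median depth of the kept cells was 4425, 3438 and 3696 UMIs. Cells were gated by how many markers of a list had a UMI. The microglia gate, which needed at least 7 of 10 markers in a cell, held 17600 cells over the 3 runs. Each of the 10 markers had UMIs in the summed cells of every run, and these markers define the gate. The other gates held 362 lipid-gated cells (markers of lipid handling and disease-associated microglia), 1267 immediate early-gated cells, 144 interferon-gated cells, 170 border macrophage-gated cells, 82 MHC class II-high cells, 66 cycling cells, 56 choroid plexus-gated cells and 13 T and NK-gated cells, with 31 cells left ungated. Run 3 held 1203 of the 1267 immediate early-gated cells, against 26 in run 1 and 38 in run 2. Of the border macrophage-gated cells of run 1, 26 of 81 held both Xist and Y-linked UMIs, and 28.4% held at least 2 astrocyte markers. The runs shared 7 or 8 cell barcodes per pair. Levels are CPM, a gene's UMIs scaled to the total UMIs of the summed cells of a population and run, ± SD over n = 3 runs, and a change is a log2 ratio ± its standard error with an adjusted p from edgeR's quasi-likelihood test over all genes tested. The p-values and standard errors rest on a spread between runs that the fit pooled over genes. A gene's own spread had no weight in the comparisons of other gates with microglia-gated cells, and little in that of Ccl3 and Ccl4. They therefore do not measure how far the runs of a single gene lie apart. The spread between runs may be technical.

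In microglia-gated cells, the subunit Nfkb1 had a level of 158, 157 and 182 CPM in runs 1, 2 and 3, a mean of 166 ± 13.9. Rel, the gene of c-Rel, had 103, 72.5 and 97.5 CPM. Of the non-canonical subunits, Nfkb2 had 9.86, 9.58 and 9.97 CPM and Relb 20.2, 25.4 and 15.99 CPM. The Nfkb2 level thus moved little between runs, whereas Rel was lowest in run 2, the run in which Relb was highest.

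Among the other members in microglia-gated cells, Nfkbia, which holds NF-kappaB in the cytoplasm, had 207, 137 and 118 CPM, and its exact Poisson intervals did not overlap between runs. Nfkbiz, the inducible nuclear IkappaB-zeta, had 6.19, 4.38 and 11.5 CPM. Tnfaip3 (A20), which takes activating ubiquitin chains off the signalling complex, had 19.4, 16.9 and 23.8 CPM. Nfkbia was thus highest in run 1 while Nfkbiz and Tnfaip3 were highest in run 3. Nfkbid, a nuclear IkappaB, had 6.09, 5.98 and 6.93 CPM, and Bcl3, a nuclear partner of p50 and p52, had 1.18, 2.04 and 1.15 CPM. Gadd45b had 1.21, 1.52 and 1.55 CPM, from 99 UMIs in all. The highest run exceeded the lowest by more than 1.5 times for 4 of the 10 members: Nfkbiz (2.62 times), Bcl3 (1.78 times), Nfkbia (1.76 times) and Relb (1.59 times). The runs are replicates of a single group, so no run was tested against another.

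In microglia-gated cells, Gadd45b had a higher level where Ccl3 and Ccl4 were found. Cells of this gate with a UMI of both chemokines (38, 40 and 52 cells in runs 1, 2 and 3) were compared with those that had neither (6349, 6151 and 4250 cells). Gadd45b had a level of 111, 23.4 and 41.7 CPM in the cells with both, against 0.374, 0.591 and 0.627 CPM in the cells with neither. Every run was higher in the cells with both, and the classes did not overlap. This was 35 UMIs in 130 cells against 34 UMIs in 16750 cells, and the log2 change was 6.79 ± 0.68 (adjusted p = 2.75e-14). Gadd45b passed the filter on low counts (1.24 CPM in 3 runs) only through the cells with both, since it reached that level in 0 runs of the cells with neither. The size of the change was set by few UMIs, and it stayed called in each of 14 alternatives, with a log2 change of 5.16 to 7.30 (6.74 with no filter).

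Relb rose as well, with 75.5, 82.0 and 37.1 CPM in cells with both chemokines against 19.7, 25.1 and 15.4 CPM in cells with neither. The classes did not overlap, and the log2 change was 1.67 ± 0.33 (adjusted p = 0.000142). Nfkbia had 232, 270 and 199 CPM against 207, 135 and 115 CPM, a log2 change of 0.63 ± 0.16 (adjusted p = 0.00847). Its levels were higher in each run, but run 3 of the cells with both lay below run 1 of the cells with neither, so the classes overlapped across runs. The Nfkbia call was lost without run 2 (0.47, adjusted p = 0.357), without run 3 (0.55, adjusted p = 0.0796) and by DESeq2 (0.70, adjusted p = 0.0516), whereas the Relb call held without any 1 run. With cells thinned to an equal depth of 2000 UMIs, neither Relb (1.43, adjusted p = 0.145) nor Nfkbia (0.62, adjusted p = 0.145) was called.

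In this comparison 3 of the 10 members were called higher and none lower, where 4.43% of all 10847 genes tested were called, 272 of them higher (2.51%) and 209 lower (1.93%), or 369 and 165 with DESeq2's size factors. The filter let all 10 members into the 5 comparisons described here. In the chemokine comparison Gadd45b and Bcl3 entered only through the cells with both, so the count of members called is not support for a pattern. The other members were not called. Nfkb1 (0.40, unadjusted p = 0.0156), Nfkb2 (1.31, unadjusted p = 0.0109) and Nfkbid (1.46, unadjusted p = 0.0212) had higher levels in the cells with both in 3 of 3 runs and adjusted p-values of 0.181, 0.145 and 0.215. Tnfaip3 had 0, 11.7 and 13.9 CPM in the cells with both against 19.1, 16.8 and 24.2 CPM in those with neither, from 5 UMIs in the former, and its log2 difference of -1.26 had an adjusted p of 0.321. Rel had 85.6, 41.0 and 97.3 CPM against 103, 73.5 and 98.8 CPM, lower in 3 of 3 runs within overlapping ranges. The Nfkbiz and Bcl3 levels in the cells with both rested on 5 and 3 UMIs.

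Immune markers of other cell types were low. Cells with at least 3 T and NK, border macrophage or choroid plexus markers had been gated elsewhere. Low sums of those lists thus follow in part from the gating. The 8 T and NK markers and the 4 neutrophil markers summed to 0 CPM in the cells with both, the 4 monocyte markers to 0 CPM, and the 8 border macrophage markers to between 0 and 18.5 CPM, against 3.41 to 6.87 CPM in the cells with neither. The 6 astrocyte markers summed to 209 to 352 CPM in the cells with both and 238 to 377 CPM in those with neither, the 6 choroid plexus markers to 0 to 20.1 and 9.41 to 76.8 CPM, and the 3 endothelial markers to 11.7 to 41.7 and 31.9 to 34.8 CPM. Median depth was 4470, 4040 and 3961 UMIs against 4370, 3406 and 3589. The 9 immediate early markers summed to 720 to 2373 CPM in the cells with both against 320 to 1522 CPM, higher in each run, and the 10 lipid markers to 106 to 190 CPM against 28.0 to 34.4 CPM. The part of these 2 lists in the result was not tested.

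**Figure D1:**
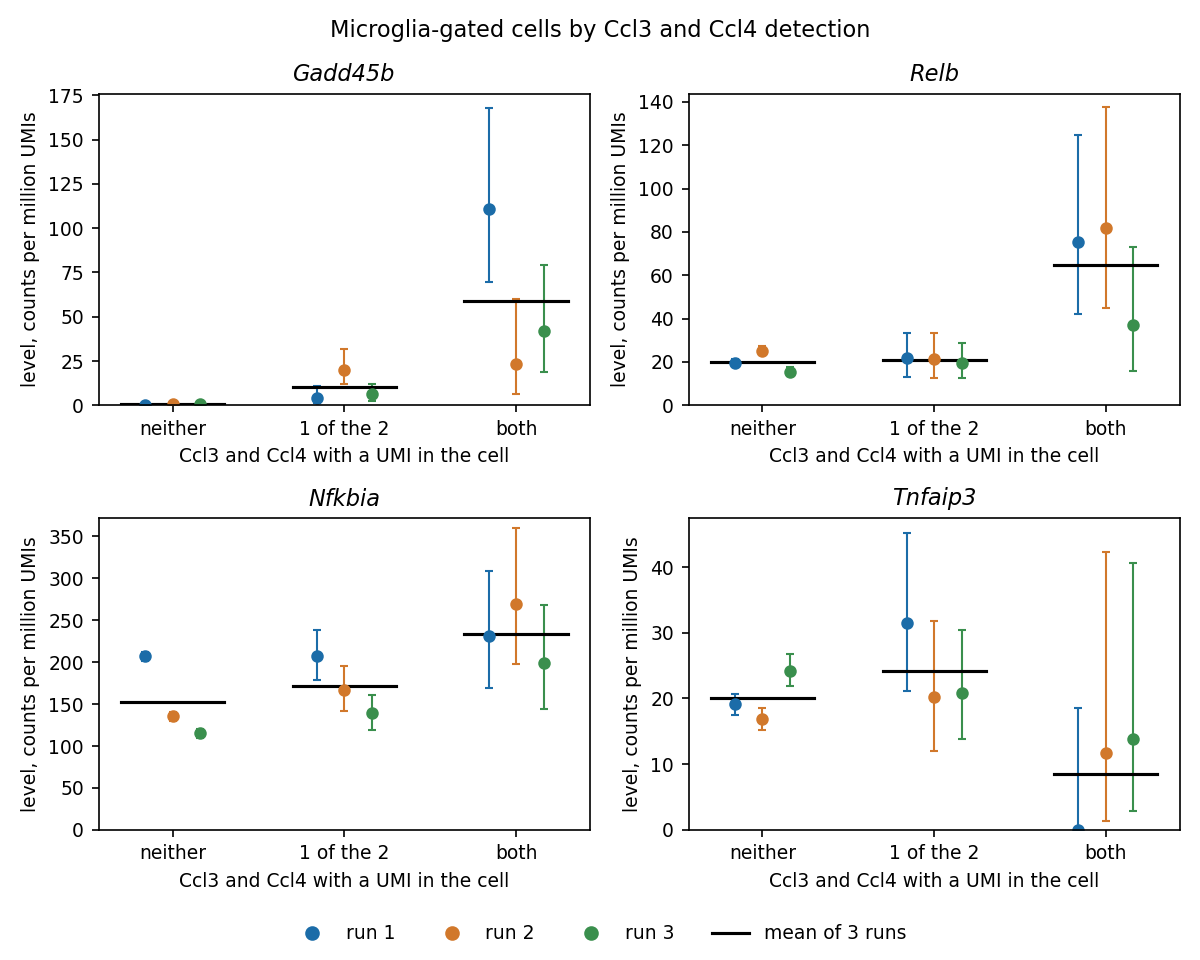
Level of 4 members (vertical axis, CPM, linear) in microglia-gated cells with neither, 1 or both of Ccl3 and Ccl4 (horizontal axis); points are runs with 95% exact Poisson intervals, which cover counting error only, and lines are means of 3 runs. Gadd45b and Relb lie higher in the cells with both in every run, Nfkbia does so by a smaller step, and Tnfaip3 rests on 5 UMIs in the cells with both.

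Co-detection was also counted per cell at equal depth, since a deeper cell has more chances to show any gene. After thinning to 2000 UMIs per cell, which left out 646 shallower cells, 68 microglia-gated cells held both chemokines. A Gadd45b UMI was found in 12.1% ± 3.91 of them (3 of 19, 3 of 24 and 2 of 25 cells), in 1.98% ± 1.47 of the cells with 1 chemokine and in 0.0857% ± 0.0392 of the cells with neither. That order held in 3 of 3 runs. Choroid plexus-gated cells, whose median depth was 1822 to 4383 UMIs per run, held Gadd45b in 0 of 56 cells, which allows a share of up to 5.36%.

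Relb was found in 11.7% ± 4.46 of the cells with both, 4.59% ± 0.592 of those with 1 and 3.97% ± 0.934 of those with neither. For Nfkb1 the shares were 37.1% ± 6.94, 27.6% ± 2.92 and 27.5% ± 2.20. Gadd45b, Relb and Nfkb1 were the 3 members with a higher share in the cells with both than with neither in every run. How many of all genes did the same was not counted. Nfkbia was higher in 2 of 3 runs, with 21.1%, 50% and 36.0% against 32.6%, 23.2% and 19.8%. Tnfaip3 and Bcl3 were found in 0 of the 68 cells, which allows up to 4.41%, and Tnfaip3 was found in 3.97% ± 0.847 of the cells with neither, so a difference was not detectable at this depth. The cells with both were few per run, so their 95% exact binomial intervals were wide, from 3.38% to 39.6% for the 15.8% of Gadd45b in run 1.

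Gadd45b also rose with the number of chemokine UMIs. In the thinned microglia-gated cells its level was 0.485 ± 0.218 CPM with 0 UMIs of Ccl3 and Ccl4 together, 6.46 ± 11.2 with 1, 32.0 ± 11.3 with 2 to 4 and 112 ± 71.2 with 5 or more. The class with 1 UMI held Gadd45b in run 2 alone, and the top class held 47 cells, so the means of neighbouring classes overlapped in their SD except between 1 UMI and 2 to 4. Relb went from 20.7 ± 4.80 to 25.4 ± 3.21, 56.9 ± 44.8 and 76.2 ± 26.9 CPM over the same classes.

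Seen from the members, the cells with Gadd45b stood apart. Over all kept cells, 110 held a Gadd45b UMI, and 66 of these (60%) also held Ccl3 or Ccl4: 22 of 40, 19 of 32 and 25 of 38 in runs 1, 2 and 3. Among the cells without Gadd45b the share was 3.91%, 4.83% and 11.7%. For the other 9 members the corresponding share of member-positive cells lay between 6.80% for Rel and 15.8% for Nfkbid. At 2000 UMIs per cell the share was 63.5% for Gadd45b (40 of 63 cells) and between 4.41% and 11.8% for the others. The Gadd45b-positive cells were 55 microglia-gated, 30 lipid-gated and 15 immediate early-gated cells, with 4 border macrophage-gated, 3 MHC class II-high and 3 in the remaining groups.

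**Figure D2:**
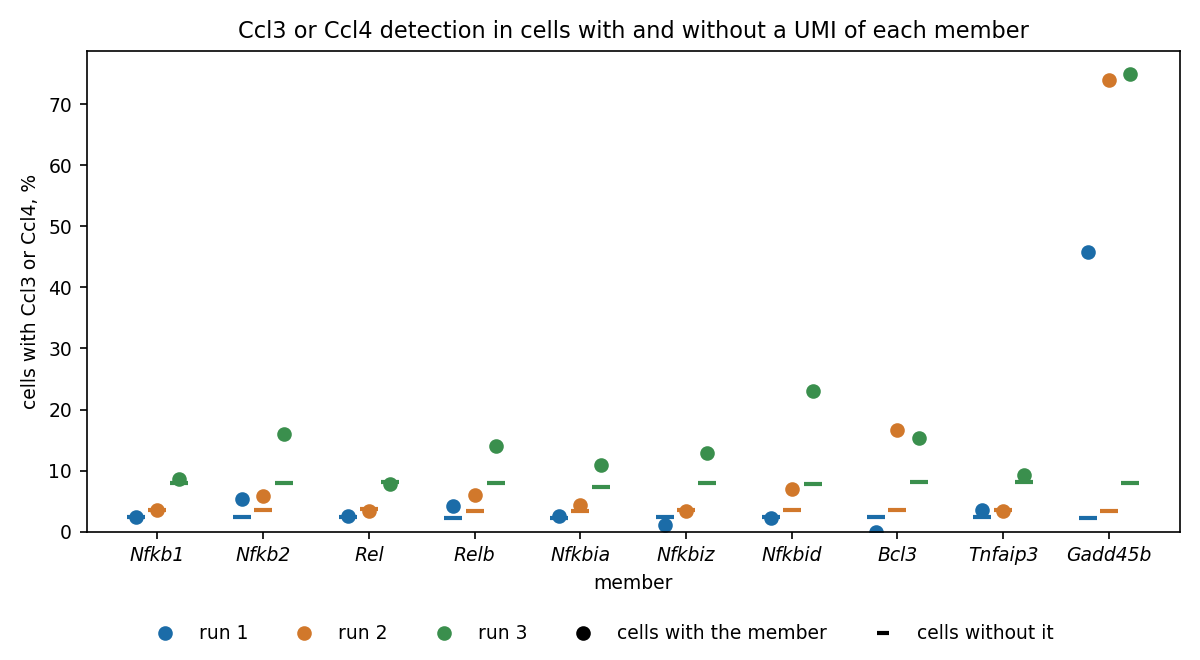
Share of cells with a UMI of Ccl3 or Ccl4 (vertical axis, percent) among cells with (points) and without (dashes) a UMI of each member (horizontal axis), by run, over all kept cells thinned to 2000 UMIs. Gadd45b-positive cells lie at 45.8%, 73.9% and 75.0%, above the other 9 members in every run.

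The chemokine classes were then drawn within the other gates, whose cells did not enter the comparison above. In lipid-gated cells, 123 cells held Ccl3 or Ccl4 and 239 held neither. Gadd45b had 77.1, 107 and 48.3 CPM in the cells with a chemokine and 11.3, 7.47 and 0 CPM in those without, with no overlap. Relb had 42.0, 64.2 and 30.7 CPM against 15.1, 27.3 and 0 CPM, and Nfkbia 196, 193 and 197 CPM against 167, 124 and 105 CPM. In lipid-gated cells 7 of the 10 members were higher with a chemokine in 3 of 3 runs and none lower. Of the 7, 3 rested on 31 UMIs or fewer in all. How many of all genes were higher in 3 of 3 runs was not counted, so the 7 are not a result about the members.

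In immediate early-gated cells, 324 cells held a chemokine and 943 held neither. Gadd45b had 83.2, 53.3 and 19.1 CPM against 0, 0 and 0.513 CPM, that is 38 of its 40 UMIs in the cells with a chemokine. Nfkbid had 72.8, 142 and 27.9 CPM against 0, 13.2 and 14.3 CPM, and Nfkbia 239, 240 and 222 CPM against 135, 172 and 184 CPM. These 3 members and Relb were higher in 3 of 3 runs. Of the 7 Gadd45b UMIs in border macrophage-gated cells, all 7 lay in the 25 cells with a chemokine, and 5 of them in 4 cells of run 2. MHC class II-high cells had 0 Gadd45b UMIs in the 23 cells with a chemokine, and all 7 of theirs, from 3 cells, lay in the 59 cells without. Interferon-gated cells had 0 in 12 cells with and 1 UMI in 132 cells without. In these 2 gates a difference was not detectable from so few cells. These differences within gates are descriptions and were not tested, and the share of all genes that were higher in 3 of 3 runs was not counted.

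In lipid-gated cells, Gadd45b had 28.7, 44.0 and 24.1 CPM against 1.21, 1.52 and 1.55 CPM in microglia-gated cells. The runs did not overlap, and the log2 change was 4.55 ± 0.35 (adjusted p = 2.94e-35), called in each of 12 alternatives. Rel, by contrast, had 80.6, 51.9 and 72.4 CPM against 103, 72.5 and 97.5 CPM, lower in each run but with overlapping ranges, a log2 change of -0.36 ± 0.12 (adjusted p = 0.0224). Nfkbiz had 4.63, 11 and 39.5 CPM against 6.19, 4.38 and 11.5 CPM, a log2 change of 1.09 ± 0.34 (adjusted p = 0.0105), higher in runs 2 and 3 and lower in run 1.

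These 2 calls higher and 1 lower stand against 19.9% of the 11185 genes tested that were called in the lipid comparison, 9.88% higher and 10.1% lower. Of the 3, Gadd45b alone stayed called whichever run was left out. The Nfkbiz call was lost without run 2 (1.01, adjusted p = 0.0753) and without run 3 (0.43, adjusted p = 0.687), and the Rel call without run 1 (-0.43, adjusted p = 0.119), without run 2 (-0.33, adjusted p = 0.113) and without run 3 (-0.36, adjusted p = 0.0676). Nfkb1 (-0.23, adjusted p = 0.0824) and Tnfaip3 (-0.60, adjusted p = 0.109) had unadjusted p-values of 0.0189 and 0.0275 and were not called. In lipid-gated cells of run 1, 2 of the 4 neutrophil markers had UMIs and summed to 190 CPM, and they were at 0 in runs 2 and 3. Their part in these results was not tested, and the Gadd45b change was 4.52 without run 1.

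Immediate early-gated cells are those with at least 4 of 9 early-response markers such as Fos. The nuclear IkappaB genes Nfkbid and Nfkbiz rose in them together with Gadd45b and Nfkbia. Nfkbid had 49.7, 90.4 and 17.6 CPM against 6.09, 5.98 and 6.93 CPM in microglia-gated cells, a log2 change of 2.36 ± 0.34 (adjusted p = 1.38e-09). Gadd45b had 56.8, 31.9 and 5.04 CPM against 1.21, 1.52 and 1.55 CPM, a log2 change of 3.48 ± 0.53 (adjusted p = 3.18e-08). Both were higher in each run without overlap, and for both the few cells of runs 1 and 2 were far above the many of run 3.

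Nfkbiz had 14.2, 15.96 and 37.6 CPM against 6.19, 4.38 and 11.5 CPM, a log2 change of 1.71 ± 0.30 (adjusted p = 4.19e-06). Here run 3 was the highest, and 194 of the 199 UMIs came from it. Nfkbia had 206, 213 and 193 CPM against 207, 137 and 118 CPM, a log2 change of 0.54 ± 0.14 (adjusted p = 0.0115), higher in runs 2 and 3 and level with the microglia-gated cells in run 1. Relb had 28.4, 15.96 and 29.1 CPM and was not called (0.69, unadjusted p = 0.00457, adjusted p = 0.346).

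The 4 members called higher here stand against 0.713% of the 11217 genes tested, 0.686% higher and 0.0267% lower. Run 3 decided 2 of the calls: without it Nfkbiz (1.58, adjusted p = 0.856) and Nfkbia (0.35, adjusted p = 0.727) were not called, Relb changed sign (-0.09, adjusted p = 0.989), and Gadd45b (4.99, adjusted p = 0.00166) and Nfkbid (3.59, adjusted p = 7.05e-08) remained called. Nfkbia was also not called without run 2 (0.48, adjusted p = 0.702). Nfkbid was 1.67 without run 2, and Gadd45b was 2.58 without run 1 and 3.01 without run 2. The level of Ccl3 in the same cells was 2302, 4936 and 165 CPM. Ccl3, Gadd45b and Nfkbid were thus all higher in runs 1 and 2 than in run 3, though Gadd45b was highest in run 1 and Ccl3 in run 2. The part of Ccl3 in these differences between runs was not tested. With no term for the run, none of the 4 was called.

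**Figure D3:**
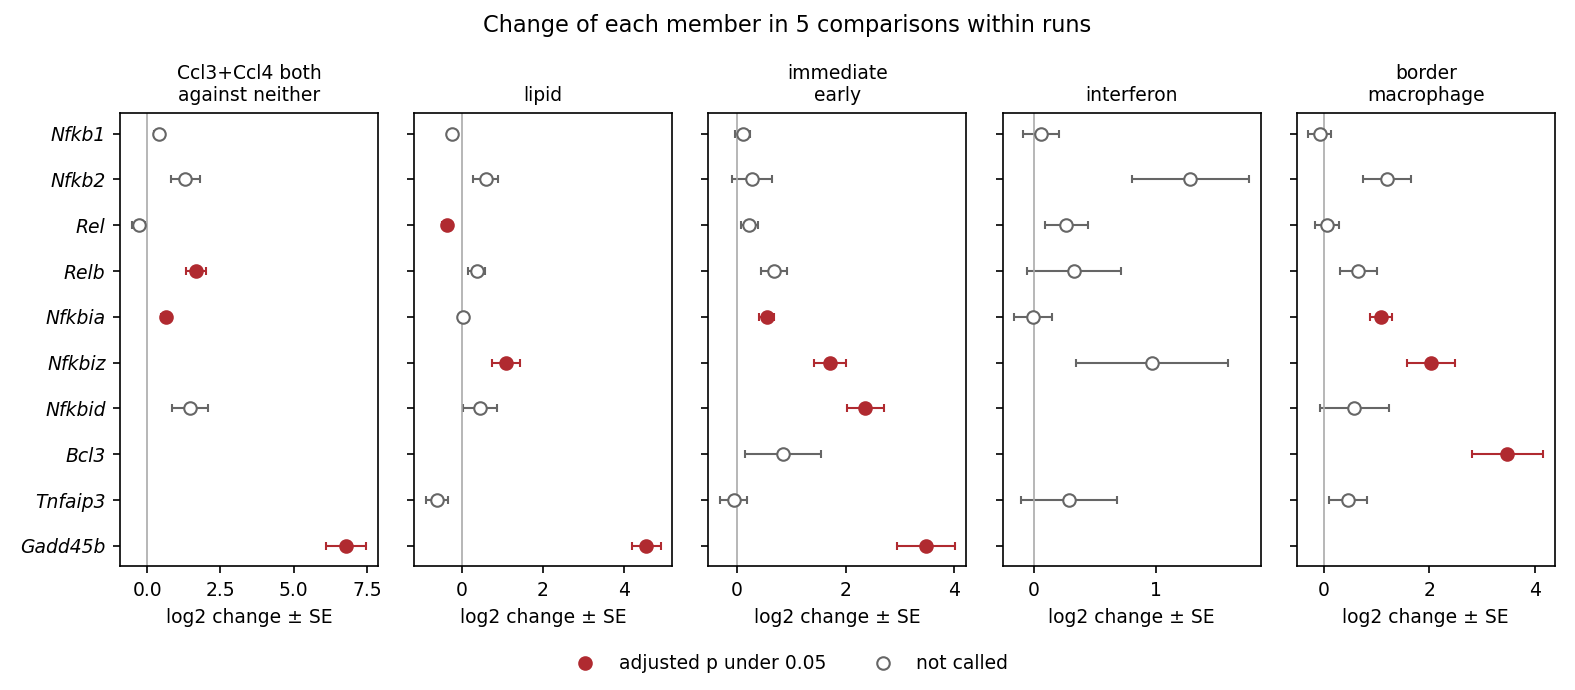
Change of each member (horizontal axis, log2 ratio ± SE, with a separate scale for each panel) in 5 comparisons within runs. The SE comes from edgeR's test, with a spread pooled over genes, and not from the scatter of a member's 3 runs. The comparisons are cells with both Ccl3 and Ccl4 against cells with neither among microglia-gated cells, and 4 gates against microglia-gated cells. Members with fewer than 10 UMIs in the first population are left out; filled points were called, and Gadd45b has the largest change among those called in the first 3 panels.

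Run 3 has enough cells to follow the members along the number of early markers. In microglia-gated and immediate early-gated cells thinned to 2000 UMIs, 828, 1637, 1577, 930 and 695 cells of run 3 held 0, 1, 2, 3 and at least 4 of the markers. Nfkbiz had 10.9, 11.6, 13, 21.5 and 48.9 CPM along these classes, and Nfkbia had 102, 114, 126, 159 and 214 CPM. Both were higher at each step, though the Poisson intervals of neighbouring classes overlapped up to 2 markers for Nfkbia and up to 3 for Nfkbiz. Relb had 16.9, 11.6, 17.8, 24.2 and 34.5 CPM, highest in the last class, and Nfkbid had 10.9, 4.28, 7.61, 14.5 and 24.5 CPM. Rel had 110, 102, 88.8, 93.5 and 85.6 CPM, lowest in the last class, with Poisson intervals that overlapped between all classes. In run 1, Nfkbia had 201, 220 and 263 CPM with 0, 1 and 2 markers, and in run 2 it had 130, 144, 160 and 294 CPM with 0 to 3, the last from 80 cells. The rise of Nfkbia with the marker count was thus present in the 3 runs over the classes with at least 50 cells. Of the smaller classes in run 1, the 34 cells with 3 markers had 191 CPM, from 13 UMIs. The 8 cells of run 1 with at least 4 markers had 312.5 CPM, and the 19 such cells of run 2 had 263 CPM.

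**Figure D4:**
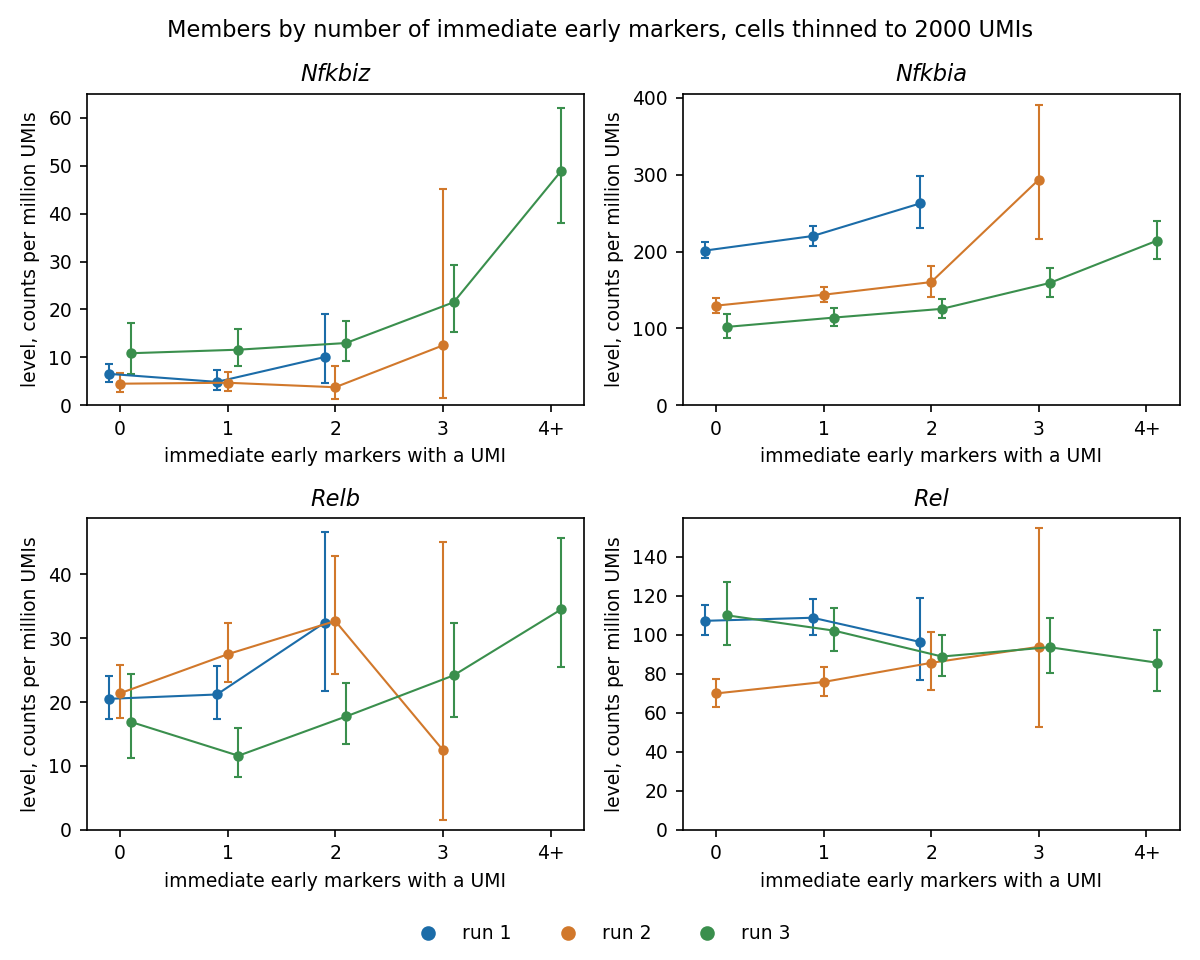
Level of 4 members (vertical axis, CPM) by the number of immediate early markers with a UMI (horizontal axis) in microglia-gated and immediate early-gated cells thinned to 2000 UMIs; colours are runs, bars are 95% exact Poisson intervals for counting error only, and classes under 50 cells are left out. Nfkbiz and Nfkbia rise along the classes of run 3, to 48.9 and 214 CPM, and Rel does not.

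In interferon-gated cells no member was called by edgeR or by DESeq2, where edgeR called 2.37% of the 10984 genes tested, 2.04% higher and 0.328% lower. At an unadjusted p under 0.05 there was 1 member, Nfkb2, with 20.2, 12.5 and 39.8 CPM against 9.86, 9.58 and 9.97 CPM. Its levels were higher in each run without overlap, from 18 UMIs, and the log2 change was 1.28 ± 0.48 (unadjusted p = 0.0077, adjusted p = 0.193). Nfkb1 had 166, 174 and 174 CPM and Nfkbia 187, 168 and 114 CPM, both within the range of the microglia-gated runs or close to it. Gadd45b had 1 UMI in 144 cells. Bcl3 had 0 UMIs, which allows up to 7.57, 18.7 and 14.9 CPM, so a difference from the microglia-gated level was not detectable at this depth. The 4 monocyte markers summed to 47.9, 1351 and 34.8 CPM in interferon-gated cells, against 3.47 to 4.70 CPM in microglia-gated cells. In run 2 all 4 had UMIs. The 8 border macrophage markers summed to 10.1, 99.6 and 4.98 CPM. The part of monocytes or border macrophages in these levels was not tested.

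In border macrophage-gated cells the IkappaB genes Bcl3, Nfkbia and Nfkbiz rose, of which Nfkbia and Nfkbiz were also called higher in immediate early-gated cells. Bcl3 had 13.2, 25.6 and 7.47 CPM against 1.18, 2.04 and 1.15 CPM in microglia-gated cells, from 17 UMIs in 16 of 170 cells. The runs did not overlap, and the log2 change was 3.48 ± 0.67 (adjusted p = 6.03e-06), called in each of 12 alternatives. Nfkbia had 262, 454 and 224 CPM against 207, 137 and 118 CPM, a log2 change of 1.09 ± 0.21 (adjusted p = 3.24e-06), higher in each run with no overlap. Nfkbiz had 13.2, 25.6 and 59.7 CPM against 6.19, 4.38 and 11.5 CPM, a log2 change of 2.03 ± 0.45 (adjusted p = 0.000149), and likewise did not overlap.

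These 3 calls, all higher, stand against 12.2% of the 11217 genes tested, 7.4% higher and 4.78% lower. The Nfkbia call was lost without run 2 (0.74, adjusted p = 0.0808), and the Nfkbiz call without run 3 (1.60, adjusted p = 0.212) and in thinned cells (1.03, adjusted p = 0.628). Without the cells that held both Xist and Y-linked UMIs the changes were 3.52 for Bcl3, 1.20 for Nfkbia and 2.38 for Nfkbiz, and without cells with astrocyte markers they were 3.48, 1.15 and 2.13, all called. Nfkb2 had 20.5, 25.6 and 18.7 CPM, above every microglia-gated run, and missed the threshold (1.20, adjusted p = 0.061). Gadd45b had 2.41, 32.0 and 0 CPM (2.35, adjusted p = 0.0511), and its value rested on run 2, since it was 0.54 (adjusted p = 0.943) without it. Of the 4 monocyte markers, 3 (Ly6c2, Plac8 and Chil3) were at 0 in these cells in each run, and the list summed to 18.1, 76.8 and 239 CPM. The 9 immediate early markers summed to 392, 838 and 3009 CPM, against 323, 483 and 1572 CPM in microglia-gated cells. Nfkbiz levels had the same order over the runs as both sums, and the part of monocytes or of the early response in it was not tested. The 10 microglia markers summed to 20308, 12385 and 7828 CPM in runs 1, 2 and 3 of the border macrophage-gated cells. In microglia-gated cells they summed to 31935, 40740 and 33169 CPM, and the part of microglial RNA in the changes was not tested.

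**Figure D5:**
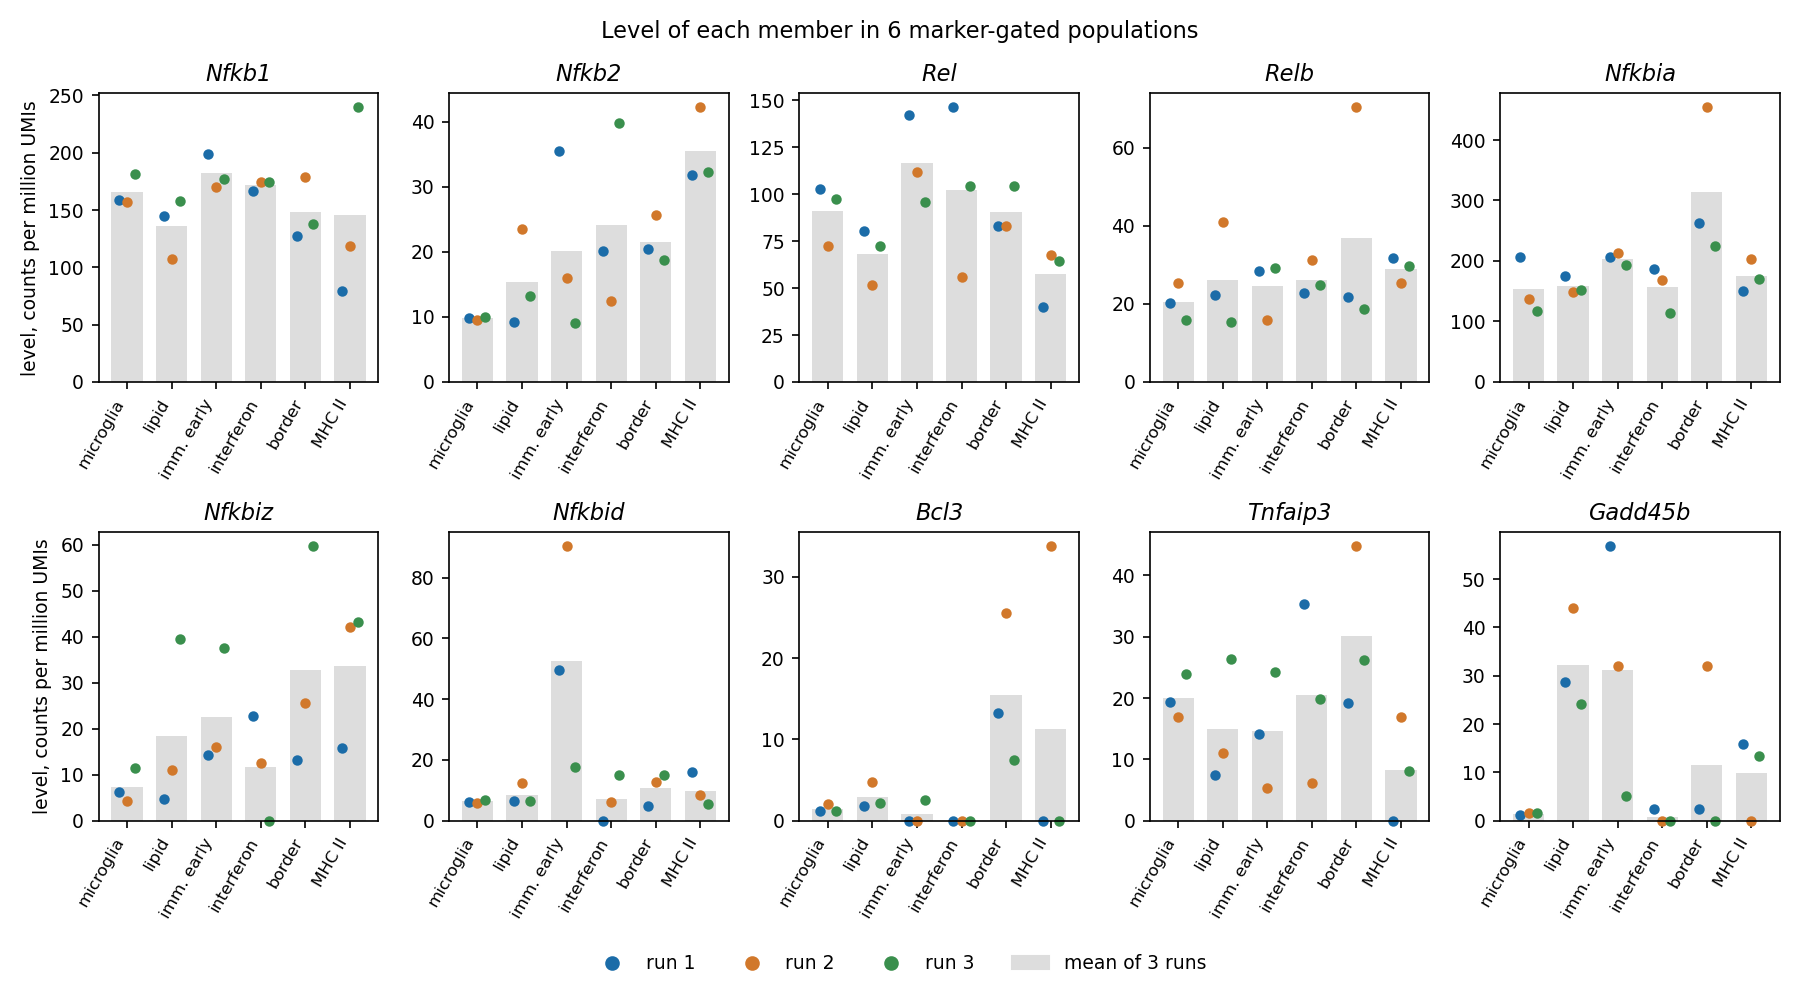
Level of each of the 10 members (vertical axis of each panel, CPM, starting at 0) in 6 marker-gated populations (horizontal axis); points are runs and bars are means of 3 runs. Nfkbia and Bcl3 have their highest means in border macrophage-gated cells, Nfkbid in immediate early-gated cells and Gadd45b in lipid-gated and immediate early-gated cells, with points of single runs far apart in several of these.

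Set in order, the Gadd45b level was 32.3 ± 10.4 CPM in lipid-gated, 31.3 ± 25.9 in immediate early-gated, 11.5 ± 17.8 in border macrophage-gated, 9.78 ± 8.56 in MHC class II-high, 1.43 ± 0.186 in microglia-gated and 0.841 ± 1.46 in interferon-gated cells. The first 2 did not differ beyond their spread, nor did any of the later neighbours. It was 0 in 66 cycling cells, where 0 cells allow a share of up to 4.55%. The Nfkbia level was 314 ± 123 CPM in border macrophage-gated cells and between 154 ± 46.8 and 204 ± 10.1 CPM in the other 5 populations, and its lowest border macrophage-gated run lay above the highest run of each of these. MHC class II-high cells had too few cells in run 1 for the test. Their Nfkb2 level was 31.8, 42.2 and 32.3 CPM, above each of the microglia-gated runs, and their Rel level was 39.7, 67.5 and 64.6 CPM, below each of them.

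Detection of the members together was counted within microglia-gated cells. Of the 45 pairs, 19 were expected in at least 20 thinned cells if independent, and the median odds ratio of these was 1.06, with 4 above 1 in 3 of 3 runs and 1 below. The furthest from 1 was Nfkbia with Tnfaip3, 2 inhibitors that NF-kappaB induces, found together in 212 cells where 169 were expected, with an odds ratio of 1.36, 1.41 and 1.44 in runs 1, 2 and 3. Tnfaip3 with Rel (1.26) and with Relb (1.23) were also above 1 in each run. Among these 19 pairs, the 4 above 1 in every run were these 3, which hold Tnfaip3, and Rel with Nfkbia (1.03). The share of other gene pairs above 1 in every run was not counted, so this is not a result about Tnfaip3. The subunit pair Nfkb1 and Relb was the pair below 1 in each run, at 0.946. The other 26 pairs rested on fewer cells. Among them the non-canonical subunits Nfkb2 and Relb were found together in 23 cells where 13.3 were expected, with an odds ratio of 1.47, 1.81 and 2.61, and Bcl3 was found with Nfkbia in 16 cells where 9.68 were expected (2.14). Pairs with larger ratios rested on still fewer cells, such as Relb with Bcl3 (5.02, from 7 cells) and Bcl3 with Gadd45b (30.7, from 2 cells). Cells are not replicates, and these values have no test.

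The genes most like a member over the 20 sums of population and run with at least 20 cells were taken for the 5 members with at least 20 CPM in microglia-gated cells, among 6234 genes (6235 for Tnfaip3), by the Pearson correlation of log2(CPM + 1). They were Tmod3, Fam129a and Ptprc for Nfkb1 (0.92, 0.90 and 0.89), and Cggbp1, Tle4 and Tab2, an adaptor of TAK1, for Rel (0.95, 0.93 and 0.93). For Relb they were Tlr1, a Toll-like receptor, Stx8 and Slc31a2 (0.91, 0.91 and 0.90), and for Tnfaip3 Prr12, Bnip2 and Ugcg (0.91, 0.88 and 0.88). Nfkbia had the lowest values, with the inhibitory Fc receptor Fcgr2b, Lst1 and Marcksl1 (0.80, 0.78 and 0.77). Among the sums were choroid plexus-gated cells of runs 1 and 2, besides those of the myeloid gates. The values thus run across populations and not within microglia-gated cells, and the part of differences between cell types in them was not tested. The sums of a run share a library, so they are not independent, and the correlations are descriptions.

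The rest of the pathway was read from 3 lists. In the comparison of cells with both chemokines and neither, 13 of the 23 tested inducible targets were higher and 1 was lower, with a median log2 change of 1.14 against -0.09 over all genes. A gene under the filter level in every run of the cells with neither could enter only through the cells with both. How many list genes did so was not counted, so the count and the median can lean to higher. Among them Ccl2, a chemokine for monocytes, had 83.8 ± 29.2 CPM against 2.46 ± 1.65 (log2 5.20 ± 0.45), Csf1, the growth factor of macrophages, 146 ± 46.9 against 8.07 ± 0.672 (4.16 ± 0.27), Plaur, the urokinase receptor, 97.3 ± 10.7 against 5.96 ± 0.41 (4.02 ± 0.33), and Cd83 777 ± 459 against 81.5 ± 15.9 (3.16 ± 0.16). Of the 27 tested receptors and adaptors, 1 was higher (Tlr2, the receptor of bacterial lipoproteins, 170 ± 29.2 against 78.9 ± 14.9 CPM) and 1 lower, and of the 30 kinases and other regulators 1 was higher and 1 lower (Chuk, the kinase IKK-alpha, 23.1 ± 10.9 against 54.0 ± 0.329 CPM).

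The same lists were counted in the other comparisons, with the same limit from the filter, and differences between lists were not tested. In lipid-gated cells, where 19.9% of all genes were called, 16 of 25 tested targets were higher and 3 lower, with Csf1 (3.26 ± 0.16) and Plaur (2.96 ± 0.21) leading, against 4 higher and 3 lower of 27 receptors and adaptors and 0 higher and 4 lower of 30 kinases and regulators. In immediate early-gated cells (0.713% of all genes) 12 of 26 targets were higher and none lower, among them Il1b, the gene of interleukin-1 beta (7.31 ± 0.51), and Ccl2 (6.99 ± 0.16), while edgeR called 0 of the 27 receptors and adaptors (1 at an unadjusted p under 0.05) and 0 of the 30 kinases and regulators (0 at an unadjusted p under 0.05). In interferon-gated cells (2.37% of all genes) 9 of 25 targets were higher and none lower, among them the chemokine genes Cxcl10 (6.29 ± 0.80) and Ccl5 (4.91 ± 0.56), with 1 higher and 1 lower of 27 receptors and adaptors and edgeR calling 0 of 30 kinases and regulators (1 at an unadjusted p under 0.05).

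In border macrophage-gated cells, where 12.2% of all genes were called, 16 of 27 targets were higher and 3 lower, against 4 higher and none lower of 28 receptors and adaptors and 1 higher and 1 lower of 30 kinases and regulators. Ccl7 (8.23 ± 0.47) and the adhesion molecule Vcam1 (7.47 ± 0.27) were higher, and Il1a was lower (-1.66 ± 0.34). The same cells had higher levels of the receptor Cd40 (6.67 ± 0.72, from 21 UMIs), of Tlr2 (1.01 ± 0.21) and of Birc3, a ubiquitin ligase of the non-canonical branch (1.31 ± 0.29). These lists were written with earlier results of these data known, so their counts are a description of the same cells and not separate evidence.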

How the data were processed

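The authors deposited raw counts per gene and barcode for each run, and a count is a UMI. The file headers give the version of the counting software as 3.0.2 (run 1) and 3.1.0 (the other runs). Cell Ranger, Seurat 4.0 and the build mm10 are named in the submitters' processing notes. The annotation and the selection of barcodes are not given in the sources used here. Per the labels' protocols, myelin was removed on magnetic columns and viable cells were sorted by flow cytometry before 10x Genomics library preparation.

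The members, lists and tests were chosen with earlier results of these data known, and gate thresholds after marker counts had been seen. Gates were applied in the order T and NK (at least 3 of 8 markers), choroid plexus (3 of 6), border macrophage (3 of 8), MHC class II (3 of 3), cycling (3 of 10), interferon (4 of 10), lipid (2 of 10), immediate early (4 of 9), then microglia (7 of 10), and 232 cells met more than 1 gate. No doublet caller was run, and an alternative left out every cell in which Xist and a Y-linked gene were both found. Over all genes the runs differed by a chi-square per degree of freedom of 31.6 to 68.1, against 1.35 to 1.42 for random parts of a run, so they were counted as separate libraries.

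Counts were summed per run and population (at least 20 cells) and tested with edgeR 4.0.16 (R 4.3.3, TMM scaling, filterByExpr, glmQLFit and glmQLFTest), with the run as a block, since the sums compared within a run share its library. P-values were adjusted by the Benjamini-Hochberg method across every gene in the fit, and a gene was called at an adjusted p under 0.05. Gate genes were normalised but not tested. On simulated counts, 39.4% of genes changed 2-fold and 84.8% of those changed 4-fold were recovered in the chemokine comparison over 10794 genes, and 43.3% and 78.8% in the interferon comparison over 10924. All 10 members are named. List genes are named, at most 5 per direction and comparison, by the largest change among those with a log2 change of at least 1, 20 CPM where it was higher, and 1 direction in all runs, and some of these are left out of the text. Intervals are 95% exact binomial or Poisson and where nothing was counted the upper limit given is 3 counts. Intervals and limits cover counting error only. Gene positions come from GENCODE M21 (GRCm38), in which Relb and Bcl3 lie 179023 bases apart on chromosome 7. Of the members, Nfkb2 and Bcl3 overlap other listed genes on the opposite strand, from which reads can be told apart only with strand-aware counting, which the sources used here do not state. DESeq2 1.42.0, other scaling and filters, leaving out each run and other cell choices were the alternatives.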

Additional observations from a re-analysis of the deposited data

How the results depend on the processing

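Of 284 alternative values for the 23 member changes given with an unadjusted p under 0.05, 231 kept their direction and side of the threshold, 36 lost a call, 14 gained one and 3 changed sign. The changes of sign were Tnfaip3 with Ccl3 or Ccl4 in place of both (0.089, not called), Relb in immediate early-gated cells (-0.0917 without run 3, and up to 0.837 without another run) and Gadd45b in border macrophage-gated cells with one more marker for every gate (-0.0494). Cells in which Xist and Y-linked genes were both found left out, cells with astrocyte transcripts left out, both chemokines replaced by either, and keeping lipid-gated and immediate early-gated cells were tried besides; the last 3 were chosen after seeing the data. The cause of these changes was not tested.

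For the cells with both chemokines, 3 members and 481 genes were called. Without the replicate block these were 1 and 77, in thinned cells 1 and 221, with one more marker for every gate, which moves lipid-gated and immediate early-gated cells into the microglia gate, 6 and 829, and with those cells kept in 7 and 1220. DESeq2 called 208 genes, and leaving out each run gave 2 to 3 members and 184 to 498 genes.

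For lipid-gated cells the 3 members became 1 by DESeq2, without the replicate block, with the stricter cell filter and in thinned cells, and 1 to 2 without each run. The 2230 genes became 1172 by DESeq2, 333 without the block, 1005 in thinned cells and 1430 to 1820 without each run. For immediate early-gated cells the 4 members became 2 by DESeq2, 0 without the replicate block and 2 to 5 without each run, and the 80 genes became 36, 5 and 50 to 106, with 48 in thinned cells. With one more marker this comparison could not be fitted, since too few cells were left.

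For interferon-gated cells the 260 genes became 171 by DESeq2, 150 without the block, 140 in thinned cells and 158 to 209 without each run. For border macrophage-gated cells the 1366 genes became 864 by DESeq2, 786 without the block and 544 to 1572 without each run. The count of members found more often in cells with both chemokines in every run was 3 in thinned cells, 6 without thinning and 5 at 1500 UMIs. It was 3 to 6 without each run, and the share of all genes was not counted.

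Depth limits the rarer members: Gadd45b, Bcl3, Nfkbid and Nfkbiz were found in few cells, and their changes rest on few UMIs. The 3 runs are a single group whose animals are not assigned to runs. Gates were drawn from marker counts, and cells near a threshold were not treated apart. In single cells, fewer expressing cells and less RNA per cell were not separated in the summed counts.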

Other observations

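Cycling cells (36, 13 and 17 in runs 1, 2 and 3) had a level of 142 ± 59.8 CPM for Nfkb1, 97.6 ± 42.4 for Rel and 140 ± 56.9 for Nfkbia (SD, n = 3 runs). Relb had 3 UMIs and Nfkb2 3 UMIs in the 66 cells, and Gadd45b had 0. Choroid plexus-gated cells, with 56 cells, had 38.3 ± 35.6 CPM for Nfkb1, 30.1 ± 42.8 for Rel and 106 ± 115 for Nfkbia, and no UMI of Ccl3, Ccl4, Nfkbid or Gadd45b. The 13 T and NK-gated cells had 237 UMIs of Ccl3 and 542 of Ccl4, spread unevenly over the runs (0 to 5767 CPM for Ccl3), while a Gadd45b UMI was found in 1 of them and Nfkbia had 153 ± 21.2 CPM. None of these populations was tested, and none held at least 20 cells in every run.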
